A study of Mus musculus with 6 samples.

Results

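The SIX-homeobox family was followed here through 5 of its genes, Six2, Six3, Six4, Six5 and Six6, in mouse mammary tumour cells made to overexpress Six2. Its members were the rows of the deposited expression table whose platform annotation names 1 of these genes and no other. That rule gave 17 probe sets of 241576 in the table: 4 for Six2, 5 for Six3, 3 for Six4, 3 for Six5 and 2 for Six6. At the level of genes it gave 5 of 20848. All 6 arrays carried RNA of 4TO7, a mouse mammary tumour cell line. The Six2 group was 3 arrays of 4TO7 cells overexpressing Six2, and the control group was 3 arrays of 4TO7 cells transduced with pcDNA, taken as the vector without Six2. The labels number the replicates but do not say whether they came from separate cultures, and the p-values given here then cover only array-to-array spread, possibly a technical one. The labels used here give neither the species nor the extent of the Six2 insert, nor whether each line was a pool or a clone. Probe sets of Six2 outside the insert would see only the cell's own transcript, and each was therefore read by itself.

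SIX-family proteins are transcription factors that bind DNA through a homeodomain and meet their partners through a neighbouring SIX-type domain. By themselves they activate transcription weakly. EYA proteins, which do not bind DNA, join them as co-activators and phosphatases, whereas DACH and Groucho (TLE) proteins can turn the complex towards repression, and PAX genes act upstream of or alongside SIX-family genes in eye, muscle and kidney. Six2 keeps nephron progenitors of the embryonic kidney undifferentiated. Six3 and Six6 form the branch of eye and forebrain development. Six4 and Six5 form another branch, with Six4 acting in muscle and Six5 lying directly beside the myotonic dystrophy kinase gene Dmpk. The series title names E-cadherin (Cdh1), the adhesion protein of epithelial cells, as a gene under Six2 control.

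Levels are log2 values as the authors deposited them, and a difference is the mean of the Six2 arrays minus the mean of the control arrays on that scale. A probe set or gene was called higher or lower where limma, fitted to all rows or all genes, gave a Benjamini-Hochberg adjusted p (two-sided) under 0.05. A gene's level is the median over its probe sets. Across all rows, the arrays correlated at 0.968 to 0.977 within the Six2 group, at 0.978 to 0.980 within the control group and at 0.957 to 0.969 between the groups. The lowest value within the Six2 group was thus below the highest between the groups. Cdh1 fell by 3.16 (SE 0.12, adjusted p 6.56e-05), with 4.41 ± 0.17 in Six2 cells and 7.57 ± 0.11 in control cells (SD, n = 3 each), and 17 of its 20 probe sets were called lower. Of the epithelial markers, Krt8 averaged 11.8 in Six2 cells and 12.3 in control cells, and Krt18 averaged 10.9 in Six2 cells and 11.7 in control cells. The summed level of 8 mammary epithelial markers, Cdh1 among them, was 45.7 to 47.5 in Six2 arrays and 51.8 to 53.4 in control arrays. Cdh1 had the largest of the 8 differences. Called lower were 4, Cdh1, Krt8, Krt18 and Krt19 (-1.24), and 0 higher, against 8.02% and 6.70% of all genes. The others did not pass, with Epcam at -0.75, Elf5 at -0.22, Krt14 at -0.032 and Krt5 at 0.71 (limma adjusted p 0.115). Fibroblast markers had 1 of 8 called lower (33.0 to 34.4 in Six2 arrays, 34.1 to 34.8 in control arrays), leukocyte markers 2 of 6 (23.0 to 23.4 in Six2 arrays, 23.7 to 24.6 in control arrays), and endothelial markers 0 of 6 (21.1 to 21.9 in Six2 arrays, 21.0 to 22.2 in control arrays), also at an unadjusted p under 0.05. The part of these markers in the results below was not tested. In RNA from many cells, fewer cells with a transcript and less of it per cell cannot be told apart.

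Of the 5 genes, Six4 rose and Six5 fell in Six2 cells, and Six2, Six3 and Six6 did not pass the test. Six4 was 1.60-fold higher and Six5 was 1.75-fold lower. The count of 1 gene higher stands against 6.70% of all genes called higher, and that of 1 gene lower against 8.02% called lower (14.7% in either direction). In both genes the arrays of the groups did not overlap, as was so for 35.8% of all genes. Among the 17 probe sets, 1 of Six4 was called higher and 1 of Six5 lower, against 1.20% and 1.60% of all probe sets (2.80% in either direction). The groups did not overlap in 9 of the 17, 5 with all Six2 arrays above and 4 with all below, whereas 29.8% of all probe sets did not overlap (14.6% above, 15.2% below). Leaving out any array, which leaves 5, took away both probe-set calls, while the calls of the Six4 and Six5 genes held. Of all 241576 probe sets, 0 to 1206 were called in those fits. The gene medians are in part the called rows' own values. In control cells, for instance, the Six5 gene and its called row 10550595 both had 6.30, 6.46 and 6.22. The gene calls are therefore not evidence separate from the rows.

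**Figure D1:**
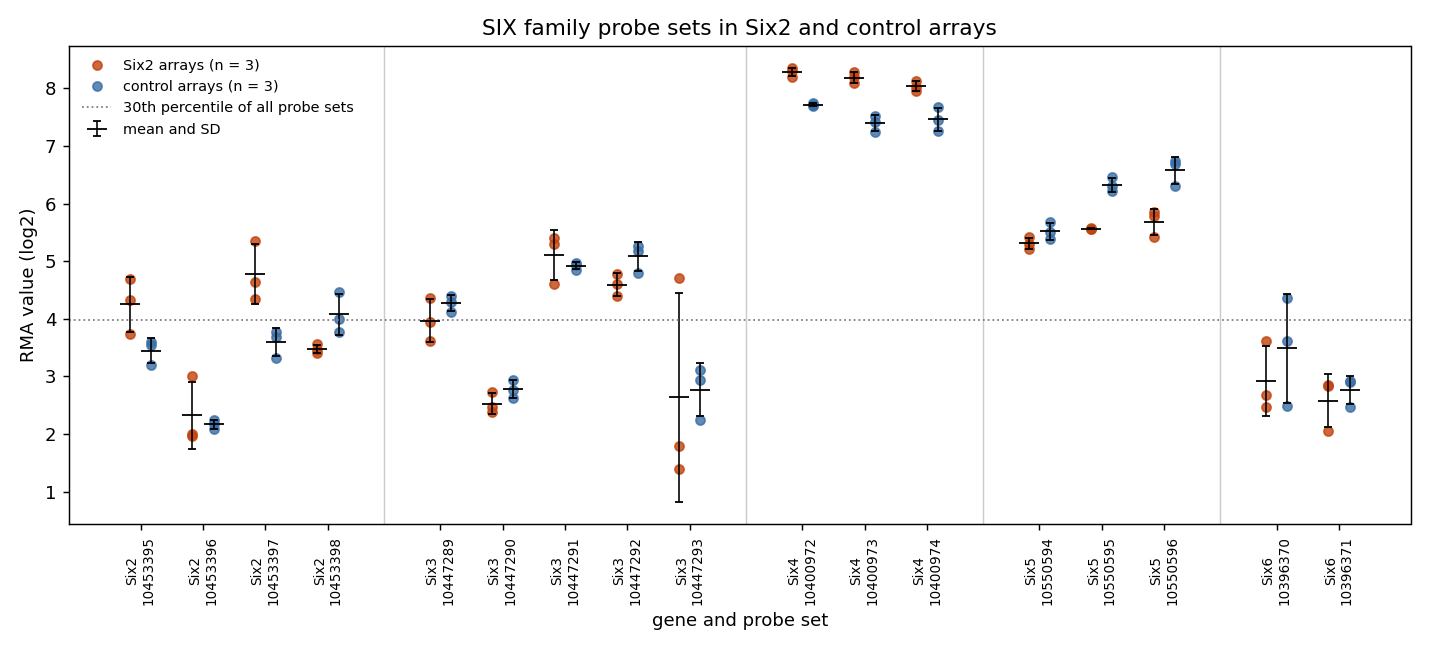
Deposited log2 level (y axis) of each of the 17 SIX-family probe sets (x axis, grouped by gene) on the 3 Six2 arrays and, to their right, the 3 control arrays, each point being 1 array, with the mean and SD as bars and the 30th percentile of all rows as a dotted line. Six4 has all Six2 arrays above all control arrays in its 3 probe sets, Six5 has them below in 2 of 3, and the 4 Six2 probe sets do not move one way.

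Six2 itself, the overexpressed gene, had a level of 3.60, 3.94 and 4.03 in Six2 cells, against 3.69, 3.25 and 3.62 in control cells. Six2 array 1 lay below control arrays 1 and 3, so the groups overlapped. The means were 3.86 ± 0.23 in Six2 cells and 3.52 ± 0.23 in control cells (SD, n = 3 each), a difference of 0.33 (SE 0.16, 95% interval -0.045 to 0.72) that missed the threshold (limma adjusted p 0.215). The exact two-sided permutation test over the 20 splits of the arrays gave p = 0.3, where 0.1 is the smallest p that this design allows. The gene-level check of the overexpressed gene therefore did not pass.

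The 4 probe sets of Six2 did not move together. Probe set 10453397 had 5.36, 4.34 and 4.64 in Six2 cells, against 3.77, 3.32 and 3.69 in control cells. All 3 Six2 arrays lay above all control arrays, at a difference of 1.19 (SE 0.29, 95% interval 0.47 to 1.90), with an adjusted p of 0.0908 in limma. The 3 control arrays lay below 3.98, the 30th percentile of all rows, where a row carries little signal, so no fold is given. Probe set 10453395 had 3.74, 4.32 and 4.70 in Six2 cells, against 3.60, 3.19 and 3.55 in control cells, again with no overlap; they differed by 0.80 (SE 0.27, limma adjusted p 0.162).

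The other pair of Six2 probe sets gave no higher level. Probe set 10453396 had 2.01, 3.00 and 1.97 in Six2 cells, against 2.09, 2.25 and 2.18 in control cells, where 1 Six2 array lay above the rest and the other 2 lay below all control arrays. Its difference of 0.15 (SE 0.30) had an adjusted p of 0.807 in limma, and without Six2 array 2 it was -0.18. Probe set 10453398 had 3.45, 3.56 and 3.41 in Six2 cells, against 4.47, 3.99 and 3.78 in control cells. All Six2 arrays lay below all control arrays there, at a difference of -0.60 (SE 0.20, limma adjusted p 0.160). Over all 6 arrays, the Six2 probe sets except 10453397 averaged at or below that 30th percentile. Probe set 10453397 averaged 4.18, above it through the Six2 arrays (4.78 in Six2 cells, 3.59 in control cells).

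Whether the probe sets of a gene moved by unequal amounts was tested by setting each against the mean of the gene's others. Probe set 10453398 differed from the other Six2 probe sets by -1.32 (SE 0.20), and 10453397 by 1.07 (SE 0.40). Combined over the gene, the Simes p was 0.00231 and the adjusted p 0.206, and 0 of the 18212 genes with several probe sets passed (0%), although 15.5% had an unadjusted p under 0.05. With limma's diffSplice, which gives the rows of a gene a shared variance, Six2 passed at an adjusted p of 0.0260, as did 13.6% of those genes. The call of unequal change in Six2 thus depended on that setting. In simulated data the test against the gene's others recovered 17% of log2 changes of 2 in 1 probe set. Its failure to pass therefore does not show equal change.

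With the mean of the 4 Six2 rows in place of their median the gene passed, at a difference of 0.38 (limma adjusted p 0.0242). It also passed with the brightest probe set alone (1.19, adjusted p 0.0480) and with rows at or below the 30th percentile left out (1.19, adjusted p 0.0276), but both settings keep only 10453397. That row was kept because of its Six2 arrays: in control cells it lay below the percentile, and below 10453398, which averaged 4.08 there. These passes were decided by the selection of the row and do not support a higher level of the gene. The other 12 of 15 alternatives left Six2 short of the threshold, and the difference was above 0 in all 15, between 0.20 and 1.19.

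Six3, which acts in the forebrain and eye field, had a level of 3.61, 4.36 and 4.71 in Six2 cells, against 4.30, 4.39 and 4.13 in control cells. The groups overlapped, and the means were 4.23 ± 0.56 in Six2 cells and 4.27 ± 0.14 in control cells (SD, n = 3 each). The difference of -0.047 (SE 0.26, 95% interval -0.67 to 0.57) had an adjusted p of 0.930 in limma and p = 0.9 in the exact permutation test. It was above 0 in 4 of 15 alternatives. Among the 5 probe sets the differences ran from -0.49 to 0.18, and 0 were called. Probe set 10447292 alone had no overlap, with 4.61, 4.39 and 4.78 in Six2 cells against 5.27, 5.18 and 4.79 in control cells, at a difference of -0.49 (SE 0.18, limma adjusted p 0.198). In probe set 10447293 a single Six2 array stood apart, with 1.39, 1.80 and 4.71 in Six2 cells against 3.11, 2.24 and 2.95 in control cells.

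Six6, the paralogue of Six3 in the eye and pituitary, had a level of 2.83, 2.76 and 2.65 in Six2 cells, against 3.25, 2.70 and 3.42 in control cells. Control array 2 lay among the Six2 arrays. The means were 2.75 ± 0.088 in Six2 cells and 3.12 ± 0.37 in control cells (SD, n = 3 each), a difference of -0.38 (SE 0.18, 95% interval -0.81 to 0.059, limma adjusted p 0.223, exact permutation p = 0.3). Without control array 2 it passed, at -0.59 (adjusted p 0.0393). Both Six6 probe sets lay at or below the 30th percentile of rows, and their groups overlapped, at differences of -0.57 and -0.18.

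Six4 was the member that rose. Its level was 8.29, 8.19 and 8.08 in Six2 cells, against 7.67, 7.45 and 7.41 in control cells. All Six2 arrays stood above the control arrays, with means of 8.19 ± 0.10 in Six2 cells and 7.51 ± 0.14 in control cells (SD, n = 3 each). The difference was 0.67 (SE 0.11, 95% interval 0.42 to 0.93, limma adjusted p 0.00879), and the exact permutation test gave its smallest p, 0.1. All 15 alternatives kept the call, at differences of 0.46 to 0.75 and adjusted p up to 0.0410.

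The 3 Six4 probe sets differed by 0.57 to 0.79 between the groups. Probe set 10400973 had 8.29, 8.19 and 8.08 in Six2 cells, against 7.52, 7.25 and 7.41 in control cells, and was called higher at 0.79 (SE 0.13, limma adjusted p 0.0453). That call was lost in 11 of 13 alternatives, and without any 1 array the difference was 0.72 to 0.86 with an adjusted p of 0.0801 to 0.141. Probe set 10400972 had 8.34, 8.31 and 8.20 in Six2 cells, against 7.71, 7.75 and 7.69 in control cells (difference 0.57, limma adjusted p 0.0624). Probe set 10400974 had 7.96, 8.13 and 8.02 in Six2 cells, against 7.67, 7.45 and 7.26 in control cells (difference 0.58, limma adjusted p 0.101). None of the 3 had overlapping groups. Unequal change among them did not pass (adjusted p 0.799).

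Six5 was the member that fell. Its level was 5.56, 5.58 and 5.42 in Six2 cells, against 6.30, 6.46 and 6.22 in control cells. All Six2 arrays stood below the control arrays, with means of 5.52 ± 0.086 in Six2 cells and 6.33 ± 0.12 in control cells (SD, n = 3 each). The difference was -0.81 (SE 0.10, 95% interval -1.05 to -0.57, limma adjusted p 0.00388), and the exact permutation test gave 0.1. All 15 alternatives kept the call, at differences of -0.89 to -0.62 and adjusted p up to 0.0294.

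Among the Six5 probe sets, 10550595 had 5.56, 5.58 and 5.56 in Six2 cells, against 6.30, 6.46 and 6.22 in control cells, and was called lower at -0.76 (SE 0.12, limma adjusted p 0.0406). The call was lost in 9 of 13 alternatives, and without any 1 array the difference was -0.82 to -0.70 with an adjusted p of 0.0853 to 0.135. Probe set 10550596 had 5.85, 5.78 and 5.42 in Six2 cells, against 6.30, 6.73 and 6.69 in control cells, a difference of -0.89 (SE 0.19, limma adjusted p 0.0695) with no overlap. Probe set 10550594 overlapped, with 5.42, 5.29 and 5.21 in Six2 cells against 5.38, 5.51 and 5.67 in control cells, at -0.21 (SE 0.14, limma adjusted p 0.414). Unequal change over the Six5 rows had a Simes p of 0.0148 and an adjusted p of 0.255, and with diffSplice an adjusted p of 0.0702.

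**Figure D2:**
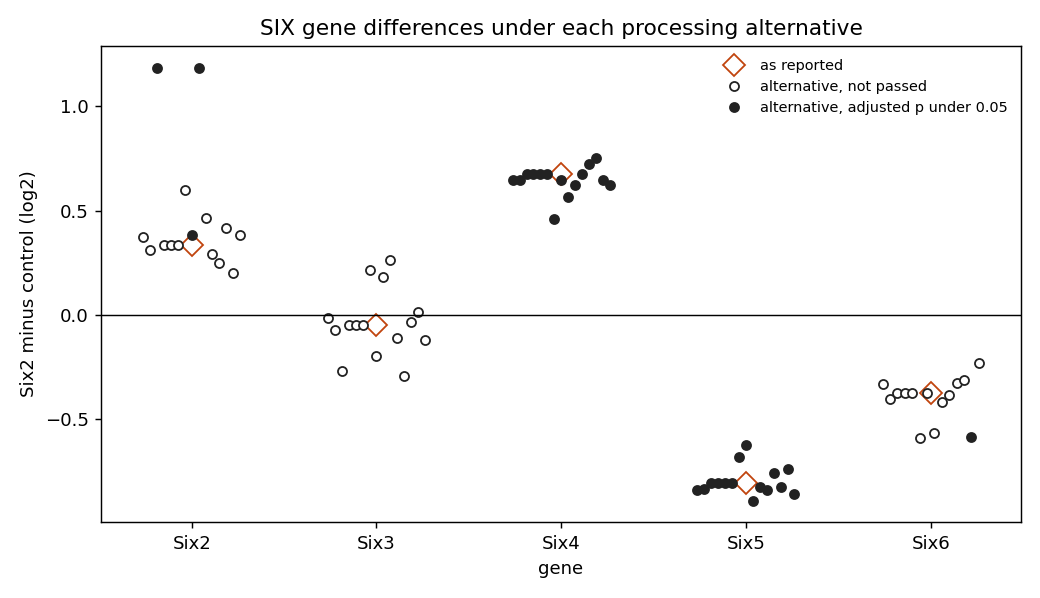
Difference in log2 level, Six2 minus control (y axis), of each SIX-family gene (x axis) as reported (diamond) and in each alternative way of processing (circles, filled where the adjusted p is under 0.05). Six4 stays between 0.46 and 0.75 and Six5 between -0.89 and -0.62, whereas Six3 lies on both sides of 0.

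The promoters of the 2 members that passed the test are shown for the motif that SIX-family proteins are known to bind in muscle genes, MEF3. Both are RefSeq windows on GRCm38.p6, from 250 bases before to 50 after the annotated start, written 5′ to 3′ along the gene's strand. Capitals mark the match to MEF3, searched as TCAGGTTTC on both strands. The Six4 window lies at chr12:73113196-73113495 on the minus strand and the Six5 window at chr7:19094294-19094593 on the plus strand.
Six4: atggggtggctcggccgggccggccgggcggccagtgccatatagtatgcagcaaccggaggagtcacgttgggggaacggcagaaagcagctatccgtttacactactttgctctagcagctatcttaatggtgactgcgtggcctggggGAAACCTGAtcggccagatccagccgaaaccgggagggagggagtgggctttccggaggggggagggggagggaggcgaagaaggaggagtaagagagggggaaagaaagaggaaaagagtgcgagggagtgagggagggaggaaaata
Six5: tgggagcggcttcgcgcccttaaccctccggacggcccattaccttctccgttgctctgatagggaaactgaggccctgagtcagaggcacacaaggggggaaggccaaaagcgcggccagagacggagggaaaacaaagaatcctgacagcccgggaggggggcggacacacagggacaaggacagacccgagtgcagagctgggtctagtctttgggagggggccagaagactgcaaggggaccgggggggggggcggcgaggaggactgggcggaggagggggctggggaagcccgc
In the Six4 window MEF3 is read on the other strand, at bases 152 to 160, with 90 bases between it and the start. A second RefSeq start of Six4 gave a window without a match, and the windows of Six2, Six3, Six5 and Six6 held neither MEF3 nor the shorter SIX-type core GGTATCA. MEF3 was found in 141 of 32851 promoter windows (0.429%) and the SIX-type core in 488 (1.49%). Of 78 measured genes with MEF3, 6 were called higher and 8 lower, at a median difference of -0.072. Of 213 with the SIX-type core, 9 were called higher and 14 lower, at a median of -0.095. Over all 15859 measured genes with a window, 1101 were called higher and 1328 lower, at a median of -0.046. A match describes the letters of the window only.

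Among the tested genes of chromosome 7, Six5 lies between Dmpk, the kinase gene whose repeat expansion causes myotonic dystrophy, and Fbxo46, an F-box protein gene. Dmpk had 8.71, 8.77 and 8.67 in Six2 cells, against 8.02, 8.07 and 8.07 in control cells. The groups did not overlap, and Dmpk rose by 0.66 (SE 0.083, limma adjusted p 0.00366), or 1.58-fold, while Six5 beside it fell. Of the 18 Dmpk probe sets 4 were called higher, and their differences ran from 0.19 to 1.27. All 15 alternatives kept the Dmpk call, at 0.49 to 0.79.

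The change in Dmpk minus the change in Six5 was 1.47 (SE 0.15, 95% interval 1.13 to 1.81). It passed in a limma fit over all 20782 pairs of neighbouring genes (adjusted p 0.000965), in which 10.2% of pairs passed. In 106 of those pairs (0.510%) both genes were called and in opposite directions, out of 622 (2.99%) with both called. This test was added after the values had been seen. Both genes were already called in opposite directions on the same arrays, so a passing difference was to be foreseen and is not separate evidence. In the same fit Six6 minus Six4, also neighbours, was -1.05 (SE 0.21, adjusted p 0.0165), and the other 6 pairs of a member with its neighbour did not pass.

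Most other genes near the members did not pass. Of the 5 genes on each side of Six5, 1 was called higher, Dmpk, and 1 lower, Dmwd, a WD-repeat protein gene next to Dmpk, at -0.42 (SE 0.081, limma adjusted p 0.0164). The Dmwd call was lost without Six2 array 2, control array 1 or control array 2 (-0.42 to -0.40, adjusted p 0.0587 to 0.0614) and in 4 other alternatives, down to -0.086. Fbxo46 had a difference of -0.23 (adjusted p 0.301). Around Six4, 0 of 10 genes were called, with differences from -0.38 to 0.72, and the nearest besides Six6, Mnat1, a subunit of the CDK-activating kinase, had 0.37 (adjusted p 0.417). Around Six6 the called gene was Six4, and 4930447C04Rik, annotated as Six6os1, had 0.30 (adjusted p 0.164). Six2 and Six3 share their neighbourhood on chromosome 17, where 1 of the 10 genes nearest each was called, Srbd1, an S1 RNA-binding domain protein gene, at -0.31 (limma adjusted p 0.0498). Without any 1 array Srbd1 was short of the threshold, at -0.33 to -0.28, and with chromosome medians subtracted it was at -0.049 (adjusted p 0.735). It was at -0.21 with either the mean or the brightest probe set. The antisense Six3os1 had 0.090 (adjusted p 0.632).

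Genes with a mean above 6 on the members' chromosomes had median differences away from 0. The median was -0.26 over 454 genes of chromosome 17, 0.22 over 324 genes of chromosome 12 and -0.13 over 646 genes of chromosome 7. Relative to that median, Six4 was at 0.46, Six6 at -0.59, Six5 at -0.68, Six2 at 0.60 and Six3 at 0.22. The part of these shifts in the members' differences was not tested, and the calls of Six4 and Six5 held with the chromosome medians subtracted. Other chromosomes were shifted too. In that setting the gene Bok of chromosome 1 went from 0.65 to 0.22, and Mgst2 of chromosome 3 from 0.63 to 0.26.

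**Figure D3:**
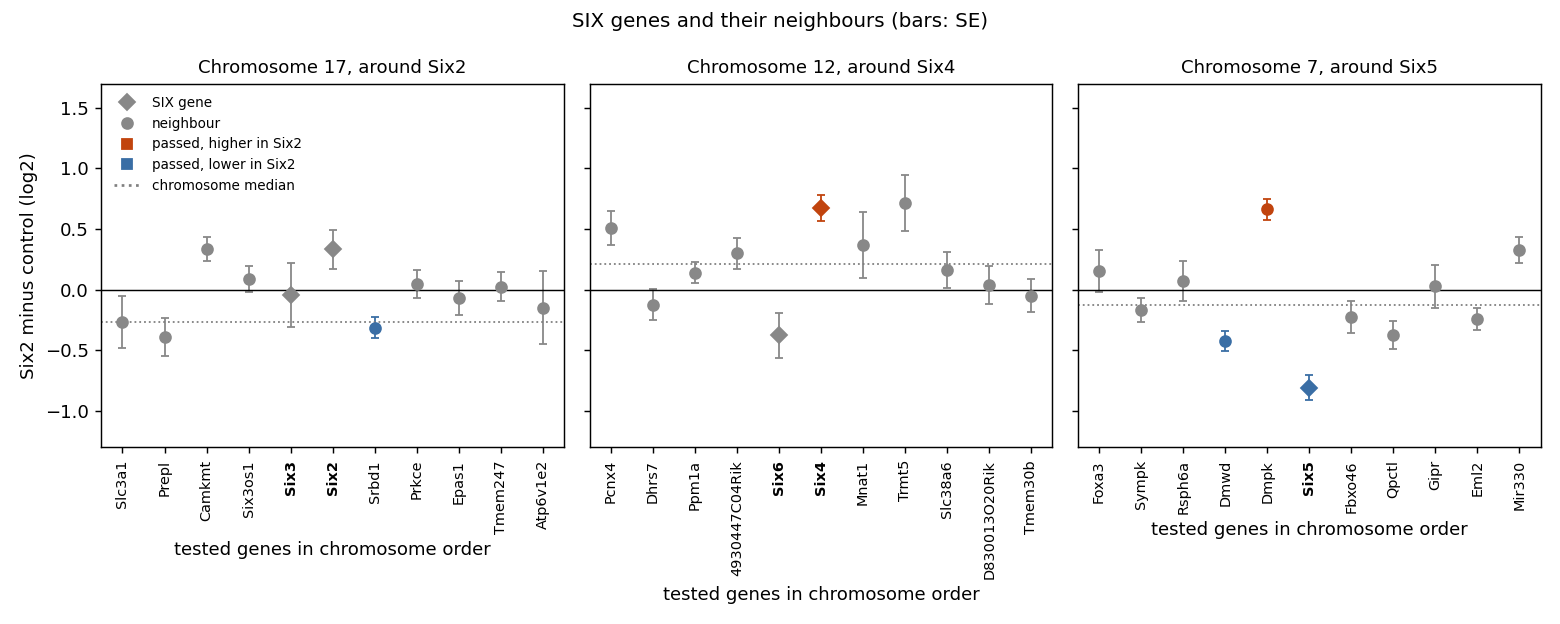
Difference in log2 level, Six2 minus control (y axis), of Six2, Six4 and Six5 and the 5 tested genes on each side of each, Six3 and Six6 among them (x axis, in the order of the chromosome), with the standard error as bars and the chromosome's median difference as a dotted line. Six5 at -0.81 and Dmpk at 0.66 lie next to each other on opposite sides of 0.

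The partners of SIX-family proteins moved in part. Of the 6 EYA and DACH genes, 1 was called higher, Eya1, and 1 lower, Eya2, and 4 did not pass. Over all genes 6.70% were called higher and 8.02% lower. The list median was -0.19 against -0.046 for all genes. Eya1 had 6.83, 7.32 and 6.89 in Six2 cells, against 4.71, 4.47 and 4.44 in control cells, and rose by 2.48 (SE 0.15, limma adjusted p 0.000324), with 14 of 20 probe sets called higher. Eya2 had 5.24, 4.69 and 5.21 in Six2 cells, against 7.64, 7.45 and 7.43 in control cells, a difference of -2.46 (SE 0.16, limma adjusted p 0.000380), with 15 of 19 probe sets called lower. These are co-activators of the same family with opposite changes, 5.57-fold higher for Eya1 and 5.51-fold lower for Eya2. With its brightest probe set alone, Eya2 had a smaller difference of -1.63. With chromosome medians subtracted Eya1 was at 2.04 and Eya2 at -2.39, both still called.

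Of the 6 Groucho-family (TLE) genes 0 were called higher and 4 lower, against 6.70% and 8.02% of all genes, at a median of -0.57. Rows called lower were 1 of 15 for Tle6, 0 of 23 for Tle4, 1 of 24 for Tle2 and 1 of 27 for Tle1. Over all probe sets 1.60% were called lower. Each of these 4 genes had rows with differences of both signs. Tle6 fell by 0.88 (limma adjusted p 0.00733), but with the brightest probe set alone its difference was -0.44 and not called, and with the mean it was -0.55. Tle4 fell by 0.66 (adjusted p 0.0151), a call lost without Six2 array 1 (-0.64) or control array 2 (-0.66) and with dim rows left out (-0.58), and its brightest probe set had -1.22. Tle2 fell by 0.78 (adjusted p 0.0388), which was lost without any 1 array (-0.90 to -0.58) and turned to 0.61 with the brightest probe set. Tle1 fell by 0.48 (adjusted p 0.0336), which was lost without Six2 array 2 or 3 or any control array (-0.50 to -0.42), with chromosome medians subtracted (-0.41) and with the brightest probe set (-0.36). Tle3, at 0.14, and Tle5, at 0.0074, did not pass. Of the 5 PAX genes 0 passed by limma or at an unadjusted p under 0.05, with differences from -0.12 to 0.19.

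**Figure D4:**
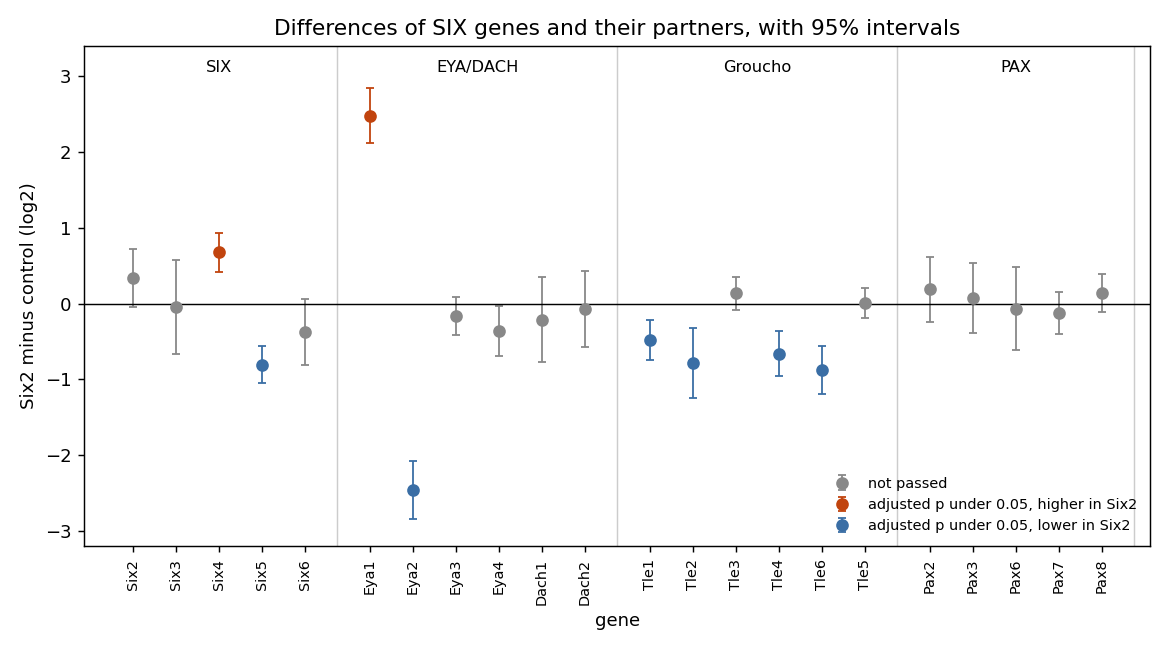
Gene-level difference in log2 level, Six2 minus control (y axis), with its 95% interval as bars, for the SIX-family genes and their EYA, DACH, Groucho and PAX partners (x axis). Eya1 at 2.48 and Eya2 at -2.46 lie farthest from 0 on either side. Of the 6 Groucho genes 4 are called lower, against 8.02% of all genes.

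Genes known from the tissues where SIX-family proteins act were also counted. Their counts stand against 6.70% of all genes called higher and 8.02% called lower. Of 17 nephron progenitor genes 1 was called higher, Eya1, and 2 lower, with a median of -0.23. Itga8, an integrin subunit of kidney mesenchyme, fell by 0.88 (SE 0.095, limma adjusted p 0.00217), and Tmem100, a membrane protein gene, by 0.91 (SE 0.13, adjusted p 0.00563). Of 9 measured eye field and forebrain genes 0 were called higher and 3 lower, with a median of -0.32. Mitf, a factor of pigment cells, fell by 0.57 (limma adjusted p 0.00967), but taken from its brightest probe set alone the difference of -0.41 was not called, and with the mean it was -0.37. Tbx3, a T-box factor, fell by 0.75 (adjusted p 0.0291), a call lost without any Six2 array or control array 1 (-0.79 to -0.72). The Tbx3 difference was -0.41 with dim rows left out (adjusted p 0.137), -0.26 with the brightest probe set (adjusted p 0.739) and -0.32 with the mean, where it was called. Wnt1, a secreted signal, fell by 0.66 (adjusted p 0.0337), a call lost without any 1 array but control array 2 (-0.71 to -0.51). The Wnt1 difference was -0.26 with dim rows left out (adjusted p 0.546), -0.10 with the brightest probe set (adjusted p 0.915) and -0.42 with the mean, where it was called. In Six2 cells both genes averaged below the 30th percentile of rows, at 3.71 for Tbx3 and 3.64 for Wnt1. Of 8 myogenic genes Dmpk was called higher and Myf5, a muscle determination factor, lower at -0.58 (adjusted p 0.0194), and the median was -0.15. The Myf5 call was lost without Six2 array 1 or 3 or control array 2 (-0.55 to -0.52). It was also lost at -0.39 with dim rows left out (adjusted p 0.133) or its brightest probe set alone (adjusted p 0.184), while the mean gave -0.36, which was called. Myf5 averaged 3.20 in Six2 cells and 3.78 in control cells, both below the 30th percentile of rows.

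Of 14 genes named as SIX-family targets in cancer or development 1 was called higher and 5 lower, at a median of -0.29. Of all genes 6.70% were called higher and 8.02% lower. The list was drawn up with Cdh1, the gene in the series title, among them, and it is not independent evidence of its direction. Beside Cdh1, Ezr, the membrane-actin linker ezrin, fell by 0.70 (SE 0.080, limma adjusted p 0.00261), and its difference was -0.44 with chromosome medians subtracted. Tgfbr1, a TGF-beta receptor, fell by 0.53 (SE 0.079, adjusted p 0.00684), but taken from its brightest probe set alone the difference of -0.40 was not called (adjusted p 0.0511). Slc12a2, an ion cotransporter, fell by 0.47 (adjusted p 0.0299), a call lost without Six2 array 2 or 3 or control array 1 or 3 (-0.45 to -0.42), and with the brightest probe set at -0.29 (adjusted p 0.210). Zeb2, a repressor of epithelial genes, rose by 0.41 (adjusted p 0.0371), a call lost without Six2 array 1 or 2 or any control array (0.33 to 0.43), with arrays centred on their median (0.38) and with the brightest probe set (0.37). For Zeb2 0 of 18 rows were called, and their differences ran from -0.87 to 0.66. Rows called lower were 4 of 14 for Ezr, 0 of 13 for Tgfbr1 and 0 of 27 for Slc12a2, against 1.60% of all probe sets. The 5th gene called lower, Vegfc, a lymphatic growth factor, had -0.73 (adjusted p 0.0471). It was not put through the alternatives, so whether its call holds there is not known.

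Genes whose level followed that of a called member over the 6 arrays were named by Pearson correlation, as a description, since the arrays fall into the same 2 groups for every gene. Members and predicted genes (symbols of Gm with digits, or ending in Rik) were left out of the ranking and its counts. For Six4 the highest were Tmem201, a nuclear membrane protein gene (r 0.998, difference 0.33, limma adjusted p 0.0512), Bok, a BCL2-family gene (r 0.992, difference 0.65), and Mgst2, a glutathione transferase gene (r 0.992, difference 0.63), among 259 genes with r above 0.95. Bok and Mgst2 were called higher, but not with chromosome medians subtracted, at 0.22 for Bok and 0.26 for Mgst2. For Six5 they were Scand1, a SCAN-domain gene (r 1.00, difference -0.64), Plcb3, a phospholipase gene (r 0.999, difference -0.56), and Ptprf, a receptor phosphatase gene (r 0.999, difference -0.998), among 749 with r above 0.95. All 3 were called lower, and Plcb3 was not called with its brightest probe set alone (-0.46).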

How the data were processed

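RNA of 6 arrays (3 Six2, 3 control) was measured, from 6 µg total RNA labelled per the labels' protocols. The values the authors deposited are on the log2 scale, as their range shows. Per the submitters' processing notes, RMA and Affymetrix Power Tools made them; for versions, probe set filter and genome build the answer is: not given in the sources used here. Of 241576 rows, 213361 had 1 gene symbol, 5107 several and 23108 none in the platform annotation, which can be old. Of 20893 symbols, 18496 stood in the RefSeq gene table, 2354 matched a synonym and 43 were not found.

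limma 3.58.1 in R 4.3.3 was fitted to all rows, to gene medians, and to each row minus its gene's others, and was tested on simulated data. With few rows changed, the row fit recovered 0% of log2 changes of 1 and 18.2% of 2. With 20000 rows changed at each size it recovered 65.8% and 90.3%. The gene fit, with few genes changed, recovered 56.7% and 95.5%. The unequal-change test recovered 17% of changes of 2. Rows or unequal changes that did not pass are thus not shown to be unchanged. The number of arrays limits the precision, and no batch is given. Members and lists were chosen with earlier results of these data known. Named were the members with all probe sets, up to 4 called genes per direction and list, Cdh1, the nearest neighbours, and the 3 genes most correlated with each called member. Members and predicted genes were left out of that correlation. Dmwd, Vegfc and the genes given beside a list's count were named after their values were seen. Alternatives changed normalization, centring, dim rows, variance, gene summary, chromosome shift, replicate block and arrays used.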

Additional observations from a re-analysis of the deposited data

How the results depend on the processing

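Over up to 15 alternatives, 66 of 74 values of the member genes kept their direction and their side of the threshold, 4 came to pass it and 4 changed sign. Of 214 values of the member probe sets, 183 were unmoved in this sense, 20 fell short, 4 came to pass and 7 changed sign. Of 450 values of the other 30 named genes the numbers were 350, 86, 6 and 8. The cause was not tested in any of these, beyond the fewer arrays or rows that a setting leaves. The count of SIX-family probe sets called higher, 1, became 0 with quantile normalization, with arrays centred on their median and with chromosome medians subtracted, and 2 with rows at or below the 30th percentile left out or with a variance trend and robust variance. The count called lower, 1, became 2 with those rows left out and 0 with the variance trend or chromosome medians subtracted. Leaving out 1 array gave 0 to 0 in both directions, with 7 to 9 of 17 at an unadjusted p under 0.05 in limma. Over all probe sets 6756 were called, 13965 with those rows left out, 20133 with the variance trend, and 0 to 1206 without 1 array (40442 to 52010 at an unadjusted p under 0.05), the 0 arising without any 1 of the control arrays. Over all genes 3068 were called, 4858 with the mean over probe sets and 1565 to 2447 without 1 array. Chromosome medians subtracted gave 924 genes higher and 1865 lower (33.1% of calls higher), against 1396 and 1672 (45.5%). The number of SIX-family genes called, 2, was 2 to 3 without 1 array. The Six2 gene passed with the mean (0.38), and also with rows at or below the 30th percentile left out (1.19) and with the brightest probe set (1.19), which both rest on probe set 10453397, kept through its Six2 arrays, and so give no support. Without 1 array it lay at 0.20 to 0.46, short of the threshold. Unequal change within a member gene went from 0 calls to 1 with diffSplice. Six6 had no value with dim rows left out.

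Same-numbered arrays of the groups did not deviate together (r -0.018, 0.0033 and -0.041), and arrays of unlike number were not set beside them. The labels do not say whether same-numbered arrays were prepared together, and these values cannot decide it. With the number as a replicate block, 0 SIX-family probe sets were called higher and 0 lower (8 of 17 at an unadjusted p under 0.05 in limma), 0 of all probe sets (47403 at an unadjusted p under 0.05) and 1828 genes, and Six4 and Six5 stayed called.

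Six3 turned to 0.22 with chromosome medians subtracted, 0.18 with the brightest probe set, and 0.26 and 0.014 without Six2 array 1 or control array 2 (-0.29 to 0.26 without 1 array). Its probe set 10447290 turned to 0.025 with chromosome medians subtracted, and 10447293 to 0.15 there and to 0.49, 0.29 and 0.041 without Six2 array 1, Six2 array 2 or control array 1 (-1.17 to 0.49 without 1 array). Six2 probe set 10453396 turned to -0.18 without Six2 array 2 (-0.18 to 0.33 without 1 array), and Six6 probe set 10396371 to 0.081 without Six2 array 1 (-0.33 to 0.081 without 1 array). Tle2 turned to 0.61 with the brightest probe set. Six3os1 turned to -0.035 with dim rows left out or the brightest probe set and to -0.14 with the mean. Fbxo46 turned to 0.042 with the mean. 4930447C04Rik turned to -0.68 with dim rows left out (adjusted p 0.0418), -0.012 with the mean and -0.95 with the brightest probe set. At 7 of the 17 SIX-family probe sets, 3 of Six2, 2 of Six3 and 2 of Six6, the signal lay at or below the 30th percentile of rows, which limits what they can show.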
